A study of Mus musculus with 6 samples.

Results

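NF-kB is a family of transcription factors built from paired Rel-type subunits, which inhibitor proteins hold back until a receptor signal releases them. Expression of these subunits and of their inhibitors was compared between regulatory T (Treg) cells of floxed Gata3 mice. A list of 10 genes was read, the subunits Nfkb1, Nfkb2, Rel, Rela and Relb, the inhibitors Nfkbia, Nfkbib, Nfkbie and Tnfaip3, and the cofactor Bcl3. Genes were taken from probe sets that the platform annotation pairs with 1 gene, and the probe set with the highest mean stood for its gene. This gave 13 probe sets for 9 of the 10 genes, among 12394 genes tested in all. Nfkb1 was not analysed here, because the annotation used here pairs it with no probe set.

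The 3 arrays labelled GATA3KO came from Gata3F/F Foxp3YFP-Cre mice, in which both Gata3 alleles are flanked by loxP sites. The 3 arrays labelled WT came from Gata3F/+ Foxp3YFP-Cre mice, which have 1 floxed and 1 intact allele, so they are not free of deletion. Both groups carry the Cre recombinase fused to yellow fluorescent protein at the Foxp3 locus, so deletion was directed to Treg cells. Cells were sorted as CD4+CD25+YFP+ from spleen and lymph nodes of 3 mice per group, and the labels give no age for the mice. Total RNA was hybridised to Affymetrix arrays and the values are log2 intensities.

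Array medians lay between 6.06 and 6.11, and precision is limited by having 3 arrays a group. Gata3 read 9.83, 9.98 and 9.71 in the arrays labelled GATA3KO, against 9.57, 9.41 and 9.47 in those labelled WT. Its probe set was thus higher in the group with both Gata3 alleles floxed. The floxed stretch of the gene and the place of the probe set are both unknown here, so this reading cannot check the labels, and no direction reported here has support beyond them. Of 8 T cell and Treg markers all were measured, with a mean log2 level of 9.13 to 9.19 in the arrays labelled GATA3KO and 9.005 to 9.12 in those labelled WT. Foxp3, whose reporter defined the sort gate, was the 1 dim marker among them, below the 40th percentile of all probe sets, at 3.94 ± 0.12 and 3.90 ± 0.05 (SD, n = 3 each). In sorted bulk cells, fewer cells of a type and less RNA per cell cannot be told apart.

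In the canonical branch of the pathway, Rela and Rel pair with the product of Nfkb1 and are retained in the cytoplasm by the IkB proteins that Nfkbia, Nfkbib and Nfkbie encode. In the non-canonical branch, the precursor made from Nfkb2 is cut to a shorter form that pairs with Relb. Tnfaip3, a ubiquitin-editing enzyme, shuts the signal off upstream, and Bcl3 binds dimers in the nucleus. Several of these genes are themselves NF-kB targets, which makes the inhibitors part of a feedback loop. In Treg cells, T cell receptor, CD28 and TNF receptor signals feed NF-kB, and Rel is known for its part in Treg development in the thymus.

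Because of that feedback, the promoters of these genes were read for the kappaB consensus, the sequence that NF-kB dimers bind. RefSeq promoter sequences (GRCm38.p6) matched 8 of the 9 measured genes. The 250 bases before each start were searched for it on both strands, and a match on either strand at 1 position was counted once. A match was present in 7 of 11 windows, against 7.25% of 32851 windows of the same length over all genes. These 7 windows came from 5 of the 8 genes, and the share of all genes with a match was not counted. Several of the matching windows belong to Nfkb2, and some of those overlap, so the windows are not independent. Matches at neighbouring positions overlap in Rel and Nfkb2. A match is a description of the letters and not a measured binding site. The last 130 bases before the start are shown for the window of each matching gene that has its matches nearest the start, 5′ to 3′ on the gene's strand, with the matches in capitals.
Nfkbia, chr12:55492648-55492777, minus strand: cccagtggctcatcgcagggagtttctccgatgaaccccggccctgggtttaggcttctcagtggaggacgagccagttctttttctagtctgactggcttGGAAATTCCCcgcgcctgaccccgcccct
Tnfaip3, chr10:19015411-19015540, minus strand: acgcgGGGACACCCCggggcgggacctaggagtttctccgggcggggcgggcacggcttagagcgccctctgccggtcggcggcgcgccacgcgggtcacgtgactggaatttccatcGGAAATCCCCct
Nfkbie, chr17:45555570-45555699, plus strand: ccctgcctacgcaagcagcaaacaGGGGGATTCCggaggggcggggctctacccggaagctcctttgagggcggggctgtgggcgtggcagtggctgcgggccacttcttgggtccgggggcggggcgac
Rel, chr11:23770970-23771099, minus strand: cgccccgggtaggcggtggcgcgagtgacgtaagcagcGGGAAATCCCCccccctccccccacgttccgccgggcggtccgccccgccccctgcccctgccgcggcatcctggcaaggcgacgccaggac
Nfkb2, chr19:46304607-46304736, plus strand: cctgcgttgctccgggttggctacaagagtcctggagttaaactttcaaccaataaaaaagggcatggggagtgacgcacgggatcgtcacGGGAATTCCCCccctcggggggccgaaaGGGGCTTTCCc

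The comparison asked whether transcripts of this core of the pathway differ between Treg cells with both Gata3 alleles floxed and those with 1. None of the 9 genes passed in limma at an adjusted p under 0.05, a threshold that 2.21% of all genes passed. At an unadjusted p under 0.05 there was 1 of 9, Tnfaip3, against 14.4% of all genes. The median log2 change of the 9 genes was 0.0069, beside 0.0078 over all genes. Tnfaip3 had the largest change of the 9. For the other 8 genes the 95% intervals of the change held 0, and their bounds lay between -0.27 and 0.30. Those bounds correspond to 1.21-fold lower and 1.23-fold higher in the arrays labelled GATA3KO. The groups' values did not overlap for 2 of 9 genes, Rela and Tnfaip3, against 19.8% of all genes.

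**Figure D1:**
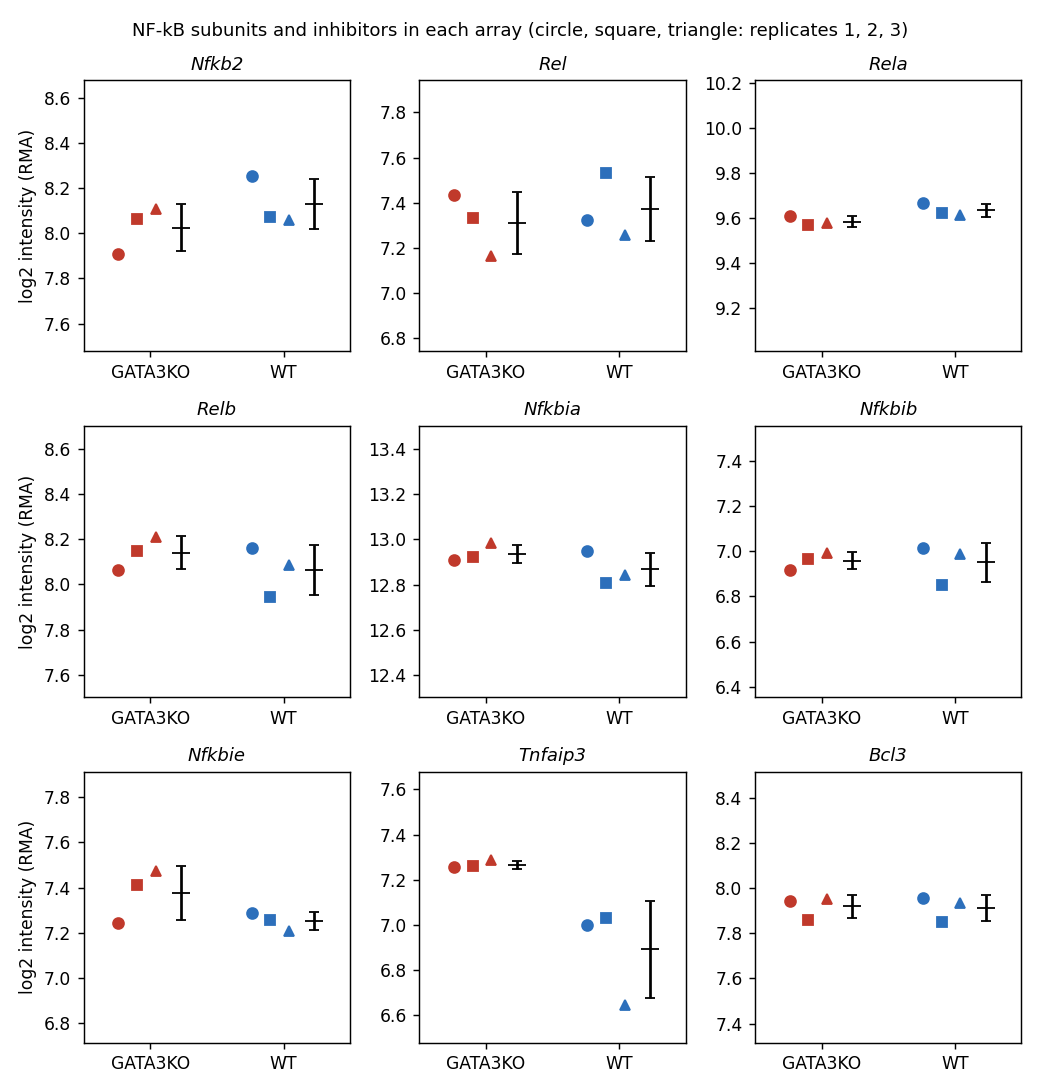
Log2 intensity (vertical axis, 1.2 log2 units in every panel) of the 9 measured genes in each array labelled GATA3KO (red, left) and WT (blue, right), with the mean and SD of 3 arrays in black. Tnfaip3 is the panel in which the groups stand clearly apart, with all 3 GATA3KO arrays above all 3 WT arrays.

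Of the 4 measured subunits 1 had a positive and 3 a negative change, with a median of -0.05 and none past the threshold. Rela, the main activating subunit of the canonical branch, read 9.61, 9.57 and 9.58 in the arrays labelled GATA3KO, against 9.67, 9.62 and 9.61 in those labelled WT. The lowest WT array lay 0.003 above the highest GATA3KO array, so the groups did not overlap, but by a margin smaller than the SD of either group (0.02 and 0.03, n = 3 each). The difference of -0.05 ± 0.04 (SE) did not pass (limma adjusted p = 0.683).

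Rel, which encodes c-Rel, read 7.44, 7.33 and 7.17 in the arrays labelled GATA3KO and 7.32, 7.53 and 7.26 in those labelled WT. The groups overlapped, and the spread within each group (SD 0.14 in both, n = 3 each) exceeded the difference of -0.06 ± 0.09 (SE, limma adjusted p = 0.843). That difference changed sign without GATA3KO replicate 3 (0.013) or WT replicate 2 (0.020).

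Nfkb2, whose product is the precursor of the non-canonical branch, read 7.91, 8.06 and 8.11 in the arrays labelled GATA3KO and 8.26, 8.07 and 8.06 in those labelled WT. GATA3KO replicate 1 was the lowest and WT replicate 1 the highest, while the other 4 arrays lay close together. The difference was -0.10 ± 0.08 (SE, limma adjusted p = 0.61), and without WT replicate 1 it was -0.04. The other Nfkb2 probe set read 7.18, 7.20 and 7.34 against 7.29, 7.16 and 7.18, a difference of 0.03 of the opposite sign (limma adjusted p = 0.915 over 20393 probe sets). The 2 probe sets of Nfkb2 therefore gave no common direction.

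Relb, the partner of the processed Nfkb2 product, read 8.06, 8.15 and 8.21 in the arrays labelled GATA3KO and 8.16, 7.94 and 8.08 in those labelled WT. The groups overlapped, with WT replicate 2 the lowest of all 6 arrays. The difference was 0.08 ± 0.07 (SE, limma adjusted p = 0.698), and without WT replicate 2 it was 0.018.

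The 4 inhibitors and Bcl3 had changes from 0.0060 to 0.37 with all 6 arrays, with a median of 0.07 and none past the threshold, where 53.0% of all genes had a positive change. The 2 smallest turned negative with single arrays left out, Nfkbib without GATA3KO replicate 3 or WT replicate 2 (-0.0093 and -0.043), and Bcl3 without GATA3KO replicate 1, GATA3KO replicate 3 or WT replicate 2 (-0.0070, -0.011 and -0.026). Nfkbia encodes IkB alpha, the inhibitor that is degraded and resynthesised fastest. On its main probe set it read 12.91, 12.92 and 12.98 in the arrays labelled GATA3KO and 12.95, 12.81 and 12.84 in those labelled WT. WT replicate 1 stood among the GATA3KO values and the groups overlapped. The difference was 0.07 ± 0.05 (SE, limma adjusted p = 0.559).

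Nfkbia is the gene of the list with the most probe sets, 4, and the other 3 can be read beside the main one. Their differences were 0.07, 0.06 and 0.07, with limma adjusted p between 0.513 and 0.698 over all probe sets. The 4 probe sets thus gave nearly the same small positive difference. They hybridised the same 6 RNA samples and are not separate evidence. Across all 13 probe sets of the 9 genes, none passed in limma, against 1.69% of all probe sets. Only 1 of the 13, that of Tnfaip3, had an unadjusted p under 0.05 in limma, where 14.4% of all genes had. The share of all probe sets under that unadjusted threshold was not counted, so this count is not set against its own background.

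**Figure D2:**
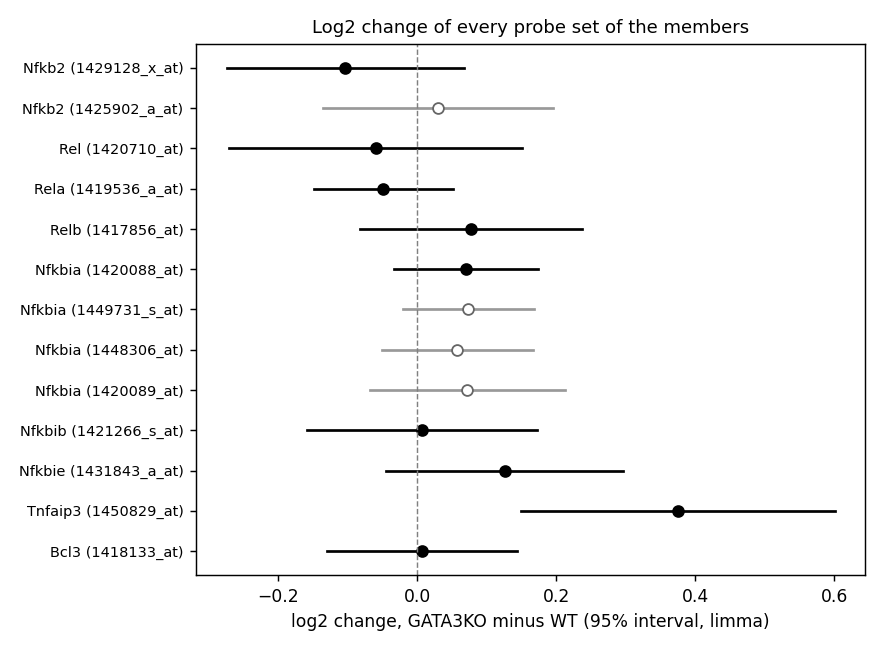
Log2 change (GATA3KO minus WT, horizontal axis) with its 95% interval for all 13 probe sets, from the limma fit over 20393 probe sets, with filled points for the probe set that stands for its gene and open points for the others. All intervals but that of Tnfaip3 cross 0, and the 4 Nfkbia probe sets lie at nearly the same value.

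Nfkbie, which encodes IkB epsilon, read 7.24, 7.41 and 7.47 in the arrays labelled GATA3KO and 7.29, 7.26 and 7.21 in those labelled WT. GATA3KO replicate 1 lay within the WT values, while the other 2 arrays of that group lay above them. The difference was 0.13 ± 0.08 (SE, limma adjusted p = 0.519), and without GATA3KO replicate 1 it was 0.19 (adjusted p = 0.226). Nfkbib, the gene of IkB beta, read 6.92, 6.97 and 6.99 in the arrays labelled GATA3KO and 7.02, 6.85 and 6.99 in those labelled WT. All of its GATA3KO values lay within the range of the WT values, and its difference was 0.0069 ± 0.07 (SE). Bcl3, an atypical IkB protein that can activate as well as repress, read 7.94, 7.86 and 7.95 in the arrays labelled GATA3KO and 7.95, 7.85 and 7.94 in those labelled WT. Its difference was 0.0060 ± 0.06 (SE), with an interval from -0.13 to 0.14.

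Tnfaip3 had the smallest p of the 9 genes. It read 7.25, 7.26 and 7.29 in the arrays labelled GATA3KO, against 7.00, 7.03 and 6.65 in those labelled WT. All 3 GATA3KO arrays lay above all 3 WT arrays, by at least 0.23, and WT replicate 3 was the lowest. The GATA3KO arrays averaged 7.27 ± 0.02 and the WT arrays 6.89 ± 0.21 (SD, n = 3 each). This is a 1.30-fold difference, with a log2 change of 0.37 ± 0.10 (SE) and a 95% interval of 0.15 to 0.60. After adjustment over all genes it did not pass (limma adjusted p = 0.102). Without WT replicate 3 the change was 0.25 (adjusted p = 0.162), and with 1 array left out in turn it lay between 0.25 and 0.44 and passed in none of the 6 fits.

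Marker lists of other leukocytes were read on the same arrays. The 9 myeloid and dendritic cell markers, all measured and 4 of them dim, had a mean log2 level of 5.71 to 6.02 in the arrays labelled GATA3KO, against 5.51 to 5.72 in those labelled WT. The 6 neutrophil markers, all measured and 4 of them dim, had 4.92, 5.24 and 5.69 in GATA3KO replicates 1, 2 and 3, against 4.68, 4.73 and 4.88 in the WT arrays. None of these 15 markers passed the limma threshold, while 5 of the 15 had an unadjusted p under 0.05, where 14.4% of all genes had. All 5 were higher in the arrays labelled GATA3KO, Lyz2 2.03-fold, S100a9 2.14-fold, Ngp 1.67-fold, Tyrobp 1.39-fold and Fcer1g 1.24-fold. Of the 15 markers only Itgam had a negative change, 1.07-fold lower, where 53.0% of all genes had a positive change. Some of the positive changes were near 0 on dim probe sets, as for Cd68 (0.02) and Cd14 (0.03). The T cell and Treg markers given above all had a positive change too. Tnfaip3 read 7.25, 7.26 and 7.29 in GATA3KO replicates 1, 2 and 3. The part of myeloid cells and neutrophils in the Tnfaip3 difference was not tested. Also measured were 6 markers of B cells, 3 of NK cells, 2 of CD8 T cells and 2 of erythroid cells. Of these only Cd22 passed the threshold, 2.22-fold higher in the arrays labelled GATA3KO, where 2.21% of all genes passed. On its B cell list Cd79b and Pax5 were also higher (0.23 and 0.03). Cd79a, Ms4a1 and Blnk were lower (-0.20, -0.40 and -0.21), and the list's median was -0.08. Besides Cd22, only Cd79b and Klrd1, an NK cell marker 1.63-fold lower, had an unadjusted p under 0.05 in limma, against 14.4% of all genes.

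Among all genes, the 3 whose profile over the 6 arrays was most like that of Tnfaip3 were Maged1, Tjp3 and Abat. Likeness was the mean absolute difference of log2 values after each gene was centred on its own mean, and it was 0.04 for each of the 3. Their log2 changes were 0.41, 0.33 and 0.39, with limma adjusted p of 0.0994, 0.202 and 0.0818, and none of them passed. They were picked for this likeness, so their similar changes are not separate evidence.

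Which array was highest or lowest within a group was counted over the 9 genes. GATA3KO replicate 3 was the highest array of its group for 7 of the 9 genes, all but Rel and Rela, against 33.6% of all genes. GATA3KO replicate 1 was the lowest of its group for 6 of 9, against 40.2% of all genes, but the highest for Rel and Rela. Among the WT arrays replicate 1 was the highest for 7 of 9 genes, all but Rel and Tnfaip3, against 38.4% of all genes. The lowest WT array was replicate 3 for 5 genes and replicate 2 for 4, against 33.6% and 34.1% of all genes. The genes share these arrays, so the counts describe the arrays and were not tested. The median SD of the 9 genes was 0.05 in the arrays labelled GATA3KO and 0.09 in those labelled WT, against 0.09 in both groups over all genes.

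Around this core, 5 further lists of pathway genes, chosen with earlier results of these data known, were read from the same fit. Of 92 measured genes on these lists, 7 rose and 1 fell, where 1.44% of all genes rose and 0.766% fell. At an unadjusted p under 0.05 in limma there were 26 of the 92 (28.3%), against 14.4% of all genes. Of 22 kinases and activating adaptors none passed in limma (3, or 13.6%, had an unadjusted p under 0.05, against 14.4% of all genes), and the change had a median of 0.0035. The smallest p were those of Prkcq (-0.18, adjusted p = 0.118), the kinase that couples the T cell receptor to NF-kB, and Traf2 (-0.17, adjusted p = 0.278), an adaptor of TNF receptors. Of 15 other negative regulators none passed in limma, where 4 (26.7%) had an unadjusted p under 0.05, against 14.4% of all genes, and their median change was 0.0066. Otulin, a deubiquitinase of linear chains, had a change of 0.21 (adjusted p = 0.0918), and Usp18, an interferon-induced protease, one of -0.44 (adjusted p = 0.106). Usp18 passed with array quality weights (-0.47, adjusted p = 0.0259) and without GATA3KO replicate 1 (-0.56, 0.0443), so its side of the threshold depended on the setting.

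**Figure D3:**
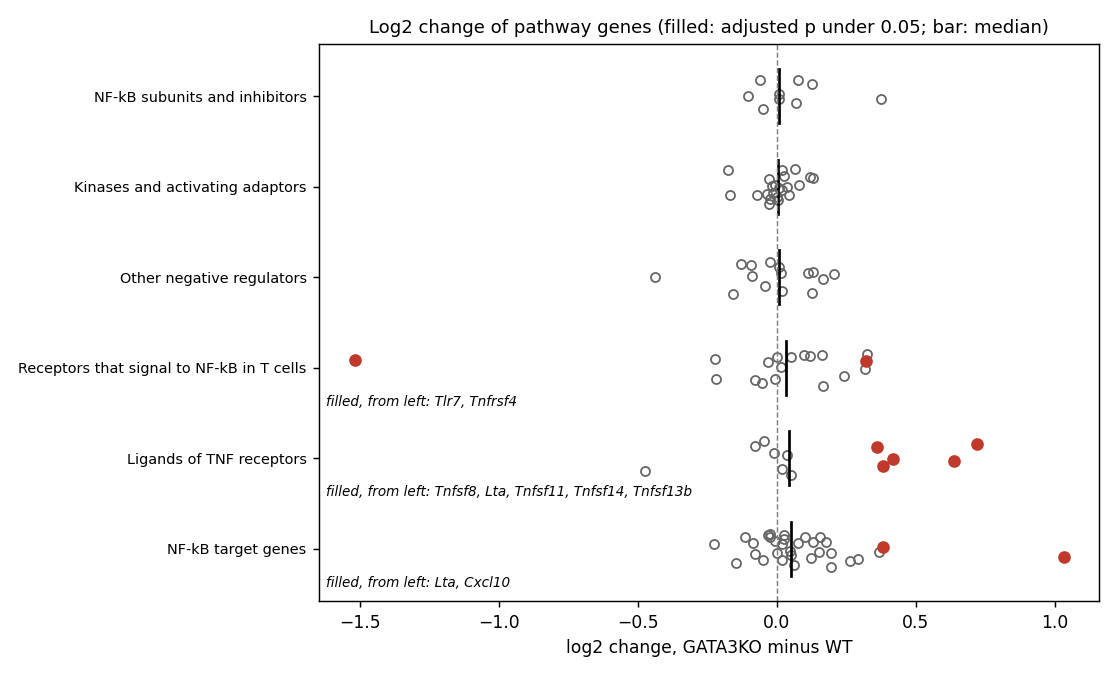
Log2 change (GATA3KO minus WT, horizontal axis) of each measured gene on 6 lists of the NF-kB pathway, with filled points for genes at an adjusted p under 0.05 and a bar at each list's median. Filled points lie in the lists of receptors, ligands and target genes, and the subunits, inhibitors, kinases and other negative regulators have none. The vertical scatter within a row only separates the points, and Lta appears on 2 lists.

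The list of TNF receptor ligands held 5 of the 8 genes that passed. It was chosen with earlier results of these data known and does not cover the whole ligand family. Of 12 measured ligands 5 rose and none fell, where 1.44% of all genes rose, and the list's median was 0.04. Tnfsf14, which encodes LIGHT, a ligand of the lymphotoxin beta receptor, read 7.29, 7.41 and 7.43 in the arrays labelled GATA3KO, against 6.61, 6.79 and 6.81 in those labelled WT, 1.56-fold higher (limma adjusted p = 0.00591). Lta, the gene of lymphotoxin alpha, rose by 0.38 on the log2 scale. Tnfsf11, which encodes the RANK ligand, rose by 0.42, and Tnfsf8, the CD30 ligand, by 0.36. Tnfsf13b, which encodes the B cell survival factor BAFF, rose by 0.72. It is better known from myeloid cells, whose markers are given above, and their part in this change was not tested. The limma adjusted p of Lta, Tnfsf11, Tnfsf8 and Tnfsf13b were 0.0116, 0.0187, 0.0185 and 0.0417.

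**Figure D4:**
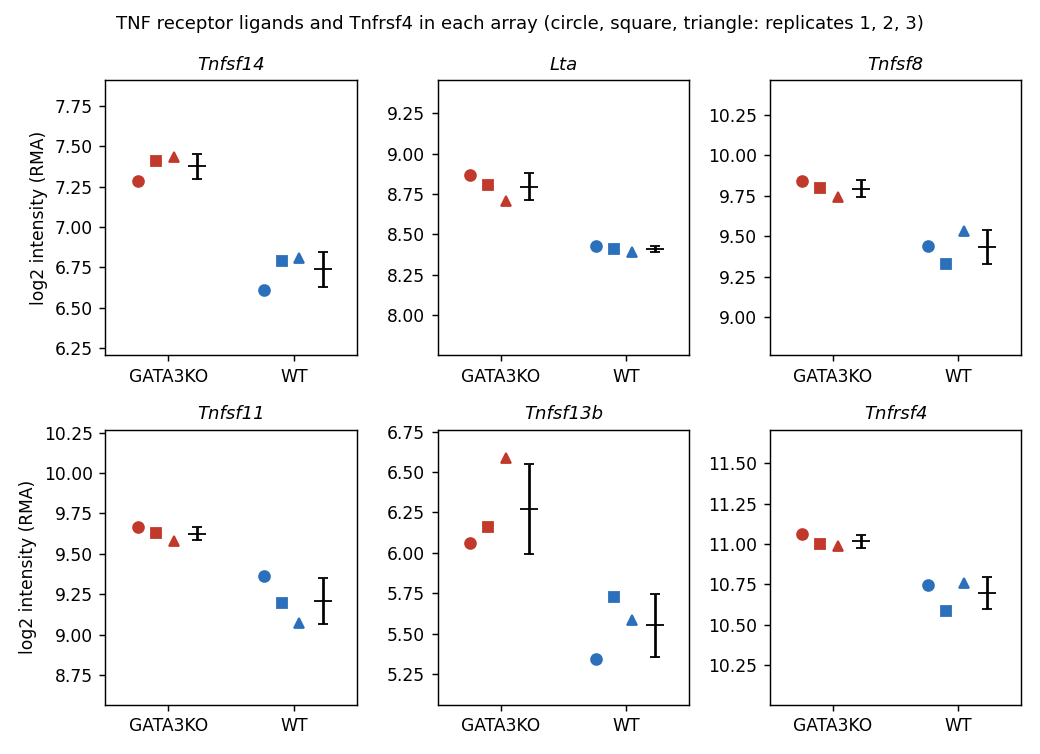
Log2 intensity (vertical axis, 1.7 log2 units in every panel) of the 5 ligands that rose and of the receptor gene Tnfrsf4 in each array labelled GATA3KO (red, left) and WT (blue, right), with the mean and SD of 3 arrays in black. The groups do not overlap in any of the 6 panels, where 19.8% of all genes do not overlap. The genes shown were picked for passing the threshold, so this is no further evidence.

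The other 7 ligands did not pass. Tnf, the founding ligand of the family, read 7.21, 7.12 and 7.21 in the arrays labelled GATA3KO and 7.45, 7.19 and 7.13 in those labelled WT (limma adjusted p = 0.775). Tnfsf10, the gene of TRAIL on a probe set with a mean of 5.29, had a change of -0.47 (adjusted p = 0.0931).

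Among 18 receptors 1 rose and 1 fell, where 1.44% of all genes rose and 0.766% fell. An unadjusted p under 0.05 in limma was found for 7 receptors (38.9%), 4 higher and 3 lower, against 14.4% of all genes. Tnfrsf4, the receptor OX40, rose by 0.32, and Tlr7, a receptor for single-stranded RNA, fell by 1.52 (limma adjusted p = 0.0186 and 0.00037). The size of the Tlr7 change rested on its main probe set, since with the mean of all its probe sets it fell by 0.88 (adjusted p = 0.00544). Among 32 target genes of NF-kB 2 rose and none fell, where 1.44% of all genes rose. These were Lta and Cxcl10, an interferon-inducible chemokine that rose by 1.03 (limma adjusted p = 0.00336), and the median of the target list was 0.05. Of the 32 target genes 7 (21.9%) had an unadjusted p under 0.05 in limma, all of them higher, against 14.4% of all genes. A positive change was found for 22 of the 32 (68.8%), against 53.0% of all genes.

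These counts depended on single arrays and on the variance model. Without GATA3KO replicate 2 or without WT replicate 2, 3 of the 92 genes passed and 1 of the 12 ligands, and the same counts were found without limma's intensity trend. Tnfsf14, Tlr7 and Cxcl10 kept their calls whichever of the 6 arrays was left out. Lta (adjusted p = 0.0651 and 0.0644), Tnfsf8 (0.0849 and 0.0744) and Tnfsf11 (0.0849 and 0.101) lost their calls without either of those arrays. Tnfrsf4 lost its call without GATA3KO replicate 2 or 3 or WT replicate 2, and Tnfsf13b without any array but GATA3KO replicate 1, with adjusted p up to 0.0839 and 0.11.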

How the data were processed

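Treg cells of 3 mice per group were measured on 6 Affymetrix arrays. The authors' deposited table holds log2 intensities of 22690 probe sets, summarised with RMA (version not stated) per the submitters' processing notes. RMA quantile normalizes the arrays, so a change shared by most genes would not be seen, and the log2 scale was read from the values. The platform annotation pairs 20393 probe sets with 1 gene, and probe sets with several genes (691) or not listed (1606) were left out. Each of 12394 genes was represented by its probe set with the highest mean, and no filter on dim probe sets was used.

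Groups, taken from the array titles, were compared with limma 3.58.1 in R 4.3.3 (lmFit, eBayes with an intensity trend, two-sided) as GATA3KO minus WT, with Benjamini-Hochberg adjustment over all genes and a threshold of 0.05. The fit was tested on simulated data. Intervals are limma's 95% intervals of the log2 change, unadjusted. Changes of probe sets other than a gene's main one come from the same fit over all probe sets. Figures were drawn with matplotlib 3.10.9.

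The gene list and the pathway lists were chosen with earlier results of these data known. Named were all members, Gata3 and Foxp3, of each pathway list the genes past the threshold or else the 2 with the smallest p, and the 3 genes most like the member with the smallest p. Tnf, Tnfsf10 and single cell type markers other than Foxp3 were named after their values were seen. Replicate numbers are not stated to pair mice, and deviations of same-numbered arrays from their group means correlated at 0.04, -0.018 and 0.07, so groups were compared unpaired. Alternatives are given in the closing section.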

Additional observations from a re-analysis of the deposited data

How the results depend on the processing

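None of the 9 genes passed under any of the 9 other settings or with any array left out, but only 5 of the 9 were left when probe sets with the suffixes _x_at, _s_at and _a_at, which may match several transcripts, were dropped. With the replicate block 368 genes passed over all genes, 0 of the 9 members, 11 of the 92 other pathway genes and 5 of the 12 ligands. Usp18 passed with the replicate block (adjusted p = 0.00673), with array quality weights and without GATA3KO replicate 1. Against 274 genes, 54 passed without the intensity trend and 585 with array quality weights, and 62 to 270 with 1 array left out. Against 8 of the 92 other pathway genes, 3 passed without the intensity trend and 3 to 10 with 1 array left out, and against 5 ligands, 1 without the trend and 1 to 5 with 1 array left out. The cause was not tested. Changes near 0 took either sign with 1 array left out, between -0.12 and 0.020 for Rel, -0.043 and 0.039 for Nfkbib, -0.026 and 0.036 for Bcl3 and -0.023 and 0.096 for Foxp3. The adjusted p of Tnfaip3 lay between 0.0579 and 0.237 over all settings. Settings applied to the pathway genes outside the core were chosen after seeing the data. No scanner files were used here, so signal over background could not be read.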
